A study of Mus musculus with 12 samples.

Results

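Aminoacyl-tRNA synthetase genes were described in hearts of mouse embryos with and without the RNA helicase gene Ddx3x in their cardiomyocytes. Genes were taken by name from the deposited table, as symbols of a capital letter followed by ars with or without a digit, together with Eprs, Farsa and Farsb, where every pool had values. The rule gave 37 of the 17165 genes with values in all 6 pools, out of 21783 listed. Of these, 20 encode enzymes of the cytosol and 17, whose names end in ars2, encode enzymes of the mitochondrion. The table uses older symbols for many of them, such as Cars for Cars1, and these are kept here.

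Aminoacyl-tRNA synthetases join each amino acid to its tRNAs, and the charged tRNAs are what the ribosome reads codons with. Cytosolic enzymes serve the ribosomes of the cytoplasm, and a separate set, also encoded in the nucleus, is imported to serve the ribosomes of mitochondria, which make subunits of the respiratory chain. Some cytosolic enzymes are held together in the multisynthetase complex, and the mRNAs of many cytosolic enzymes are known to be induced by ATF4, a transcription factor of the response to amino acid shortage and other stress.

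CM-KO embryos carried floxed Ddx3x alleles and Tnnt2-Cre, a recombinase active in cardiomyocytes, and WT embryos carried the floxed Ddx3x alleles (Ddx3x fl/fl). All embryos were female by label and taken at embryonic day 10.5. For both CM-KO and WT embryos, 20 hearts made up a pool and 3 pools were collected. RNA and ribosome-protected footprints of the same pool were sequenced separately, in 12 libraries altogether. Hearts were used whole, so the endocardium, epicardium, cushions and blood kept an intact Ddx3x gene in both genotypes. In such bulk samples, fewer cells of a type and less RNA per cell cannot be told apart.

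Depth was 14.7 to 19.9 M counts per RNA library and 7.31 to 14.3 M per footprint library, and a synthetase gene had 133 to 5079 counts in an RNA library and 62 to 7520 in a footprint library. Ddx3x RNA averaged 239 ± 36.0 CPM (counts scaled to library size by TMM) in CM-KO hearts and 303 ± 8.95 CPM in WT hearts (SD, n = 3 each), and its log2 fold change was -0.34 (adjusted p = 0.0883 from the quasi-likelihood test of edgeR, adjusted by Benjamini-Hochberg over all genes). Reads of the Y-linked gene Ddx3y went against the female label in some pools, with 106, 64 and 4 RNA counts in CM-KO pools 1, 2 and 3, against 2, 2 and 0 in WT pools 1, 2 and 3. Results are therefore also given without CM-KO pools 1 and 2. Xist, which female cells express from the inactive X chromosome, had 6308, 4322 and 5777 RNA counts in CM-KO pools 1, 2 and 3. In WT pools 1, 2 and 3 it had 5107, 5884 and 8219. How many hearts of a pool carried a Y chromosome was not tested. Summed erythroid markers, all 8 of them detected, ran from 12541 to 15746 CPM in CM-KO RNA and from 8641 to 13871 CPM in WT RNA. In footprints these markers summed to 69093 to 88504 CPM in CM-KO hearts, against 42757 to 56932 CPM in WT hearts. Summed cardiomyocyte markers ran from 18149 to 19408 CPM in CM-KO RNA and from 15828 to 17740 CPM in WT RNA. Ttn, the largest of these 8 markers, averaged 7986 ± 375 CPM in CM-KO RNA and 6120 ± 330 CPM in WT RNA. Of the 8, 4 had an RNA log2 fold change above 0, and the median was 0.03. In footprints the cardiomyocyte sums overlapped, at 31509 to 38783 CPM in CM-KO hearts and 34390.5 to 36016 CPM in WT hearts.

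In WT hearts the cytosolic median stood well above the mitochondrial median in RNA. It also did in footprints relative to RNA, though single genes of the classes overlapped in both measures. The median RNA level was 33.1 CPM per kilobase of transcript for the 20 cytosolic genes and 5.61 for the 17 mitochondrial genes, beside 8.77 for all 13877 coding genes tested. Among the cytosolic genes the level ran from 5.91 CPM per kilobase for Cars, the cysteine enzyme, to 53.6 for Kars, the lysine enzyme. Kars and Gars each encode both the cytosolic and the mitochondrial enzyme for their amino acid, and neither has a partner ending in ars2. Counted per kilobase of coding sequence the medians were 40.1 and 15.5 CPM for cytosolic and mitochondrial genes. Footprints per kilobase of coding sequence had medians of 77.5 and 13.8 CPM for the cytosolic and the mitochondrial genes, beside 13.0 for all coding genes.

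The footprint-to-RNA ratio, taken per pool on a log2 scale after joint scaling of all libraries, had a median of 1.32 over the cytosolic genes and 0.52 over the mitochondrial genes in WT hearts, beside -0.05 over all coding genes. The order held in every WT pool: the cytosolic medians were 1.35, 1.48 and 1.23 in pools 1, 2 and 3, and the mitochondrial medians 0.55, 0.57 and 0.32. Rars, the arginine enzyme of the complex, had the highest ratio, at 2.19 ± 0.15 (SD, n = 3), and 99.2% of coding genes lay below it. Nars for asparagine, at 1.94 ± 0.13, and Lars for leucine, at 1.81 ± 0.13, came next. The cytosolic genes were also alike in this measure, since the lowest, Vars for valine, was at 0.89 ± 0.04 with 82.8% of coding genes below it. The mitochondrial genes were spread far more widely. Lars2, the mitochondrial leucine enzyme, was at 1.41 ± 0.66, with a value of 2.17 in WT pool 1 against 1.06 and 0.98 in WT pools 2 and 3. At the other end Nars2 was at -0.44 ± 0.12, Wars2 at -0.92 ± 0.25 and Fars2, the mitochondrial phenylalanine enzyme, at -1.43 ± 0.22, where 9.8% of coding genes lay below.

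**Figure D1:**
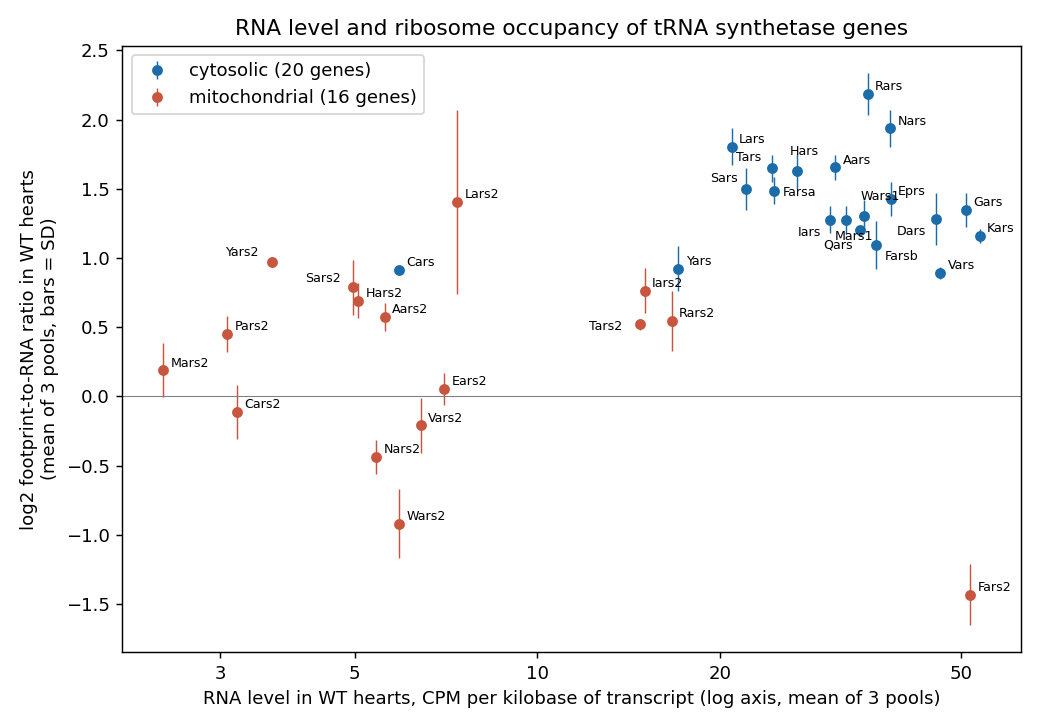
RNA level in WT hearts (x axis, CPM per kilobase of transcript, log scale) against the log2 footprint-to-RNA ratio (y axis) for the synthetase genes, 1 mitochondrial gene not being drawn, as means of 3 WT pools with bars of 1 SD on the ratio. The cytosolic genes lie between 0.89 and 2.19 on the y axis, and the mitochondrial genes between -1.43 and 1.41, with Fars2 apart from the rest at high RNA and low ratio.

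Set against each other by amino acid, 18 pairs could be formed, with Farsa and Farsb, the subunits of the cytosolic phenylalanine enzyme, each paired with Fars2, and the fused glutamate and proline enzyme Eprs paired with Ears2 and with Pars2. The cytosolic gene had more RNA per kilobase in 16 of the 18 pairs, by 13.3-fold for methionine (Mars1 over Mars2) and 12.4-fold for proline (Eprs over Pars2). Per kilobase of coding sequence it also had more RNA in 16 pairs, but these folds were 2.25 and 8.66, the Mars2 transcript being 15.6% coding. The pairs that went the other way were those of phenylalanine, with 24.5 CPM per kilobase for Farsa and 36.2 for Farsb, and 51.7 for Fars2. The cytosolic gene had the higher footprint-to-RNA ratio in 17 pairs. For tyrosine the genes were level, at 0.92 ± 0.16 for Yars and 0.97 ± 0.03 for Yars2 (SD, n = 3).

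The sets also differ in the make-up of their transcripts, whose part in the levels and ratios was not tested. In the longest coding transcript of each gene, coding sequence took a median of 78.1% of the length for cytosolic genes and 50.2% for mitochondrial genes, beside 47.6% for all coding genes. Over the 37 genes the ratio in WT hearts went with this share with a Spearman rho of 0.48, as a description across genes that share libraries, and over all 13877 coding genes with a rho of 0.21. Cars had the lowest share among cytosolic genes, with 37.6% of a transcript of 6821 bases. How far its level per kilobase depends on the transcript chosen was not tested. The median 5' leader was 154 bases for cytosolic genes and 266 for mitochondrial genes, beside 265 for all coding genes, and its GC content was 65.1%, 62.5% and 63.6% in the same order. Fars2 spans 609 kb of chromosome 13 (36301324 to 36910254, plus strand, GRCm39), and which parts of a gene were counted is not stated. Across all coding genes the ratio had a rho of -0.29 with the span of the gene, and across the 37 synthetase genes a rho of -0.03.

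The first comparison asked which synthetase RNAs differed between CM-KO and WT hearts. Of the 37 genes 2 rose in CM-KO and none fell, both cytosolic: Cars and Gars, the enzymes for cysteine and glycine. Across all 17147 genes tested, 4.37% were called at an adjusted p under 0.05, with 3.57% higher and 0.805% lower in CM-KO. Of all calls 81.6% were higher in CM-KO, or 63.6% with upper quartile scaling. Log2 fold changes were above 0 for 15 of 20 cytosolic genes, with a median of 0.08, and for 6 of 17 mitochondrial genes, with a median of -0.04, where 51.7% of all genes were above 0 and the median was 0.01. The cytosolic count was 11 with upper quartile scaling, without CM-KO pool 1 and without WT pool 2, and the cytosolic median was 0.04 with upper quartile scaling and without WT pool 2, and 0.13 without WT pool 1. The mitochondrial count was 3 with upper quartile scaling and without WT pool 1, 4 without CM-KO pool 1, 8 without CM-KO pool 3 and 9 without WT pool 3. The mitochondrial median turned to 0.0016 without WT pool 3, and was -0.11 without CM-KO pool 1, -0.08 without WT pool 1 and -0.06 without WT pool 2. The 95% confidence interval reached a median of 0.16 to either side for cytosolic genes and 0.18 for mitochondrial genes. At an unadjusted p under 0.05 there were 7 cytosolic and 5 mitochondrial genes, of 2758 among all genes.

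Cars (chromosome 7, 143107440 to 143153828, minus strand, GRCm39) had 50.6, 49.0 and 54.6 CPM of RNA in CM-KO pools 1, 2 and 3, against 42.1, 37.7 and 41.2 in WT pools 1, 2 and 3. All CM-KO pools lay above all WT pools, and the log2 fold change was 0.35 (SE 0.07, 95% interval 0.19 to 0.51, adjusted p = 0.0240, edgeR quasi-likelihood test). Its mitochondrial partner Cars2 had 23.3, 25.5 and 21.5 CPM in CM-KO pools against 22.7, 25.5 and 27.2 in WT pools, with overlapping genotypes and a log2 fold change of -0.10 (edgeR adjusted p = 0.73). Gars (chromosome 6, 55014927 to 55061231, plus strand) had 222, 207 and 228 CPM in CM-KO pools, against 178, 162.5 and 175 in WT pools. Its pools did not overlap either, and the log2 fold change was 0.35 (SE 0.07, 95% interval 0.19 to 0.50, edgeR adjusted p = 0.0201). Gars supplies glycyl-tRNA to both compartments from its 1 gene.

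The sizes of these changes were steady, and their calls were not: across 13 alternative settings the log2 fold change ran from 0.29 to 0.44 for Cars and from 0.30 to 0.41 for Gars. Both lost the call when CM-KO pool 1 was left out (edgeR adjusted p = 0.0707 for Cars and 0.0762 for Gars), when CM-KO pool 3 was (0.0962 and 0.0761) and when WT pool 2 was (0.264 and 0.249). Cars also lost it without CM-KO pool 2 (0.0611) and with upper quartile scaling (0.0574). Both lost it when all 12 libraries were fitted in one model (0.294 for Cars and 0.230 for Gars). The same held with the replicate number as a block (edgeR adjusted p = 0.0567 for Cars and 0.0573 for Gars). Without CM-KO pools 1 and 2 together the log2 fold changes were 0.44 and 0.41, with edgeR adjusted p of 0.139 and 0.136 and a single CM-KO pool taken to vary as the WT pools do. The authors' deposited table lists an adjusted p of 0.0256 for Cars RNA and of 0.000415 for Gars RNA.

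The cytosolic genes next in size did not pass the test. Vars RNA stood at 217, 222 and 227 CPM in CM-KO pools against 170, 187 and 204 in WT pools, a log2 fold change of 0.25 (edgeR adjusted p = 0.115), and it was called without WT pool 3 (0.33, adjusted p = 0.0439). Aars, the alanine enzyme, stood at 126, 131 and 135 CPM in CM-KO pools against 114, 111 and 119 in WT pools (0.18, edgeR adjusted p = 0.162). Nars stood at 126, 111 and 125 CPM in CM-KO pools against 108, 99.6 and 111 in WT pools (0.18, edgeR adjusted p = 0.252). For these 3 genes, as for Cars, Gars, Mars1 and Yars, each CM-KO pool was above each WT pool. That made 7 of 20 cytosolic genes, where 13.3% of all genes had CM-KO pools above all WT pools. Kars was the 1 cytosolic gene with each CM-KO pool below each WT pool, at 129, 117 and 122 CPM in CM-KO hearts and 134, 137 and 134 CPM in WT hearts (-0.14, edgeR adjusted p = 0.335), where 8.42% of all genes had CM-KO pools below all WT pools.

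**Figure D2:**
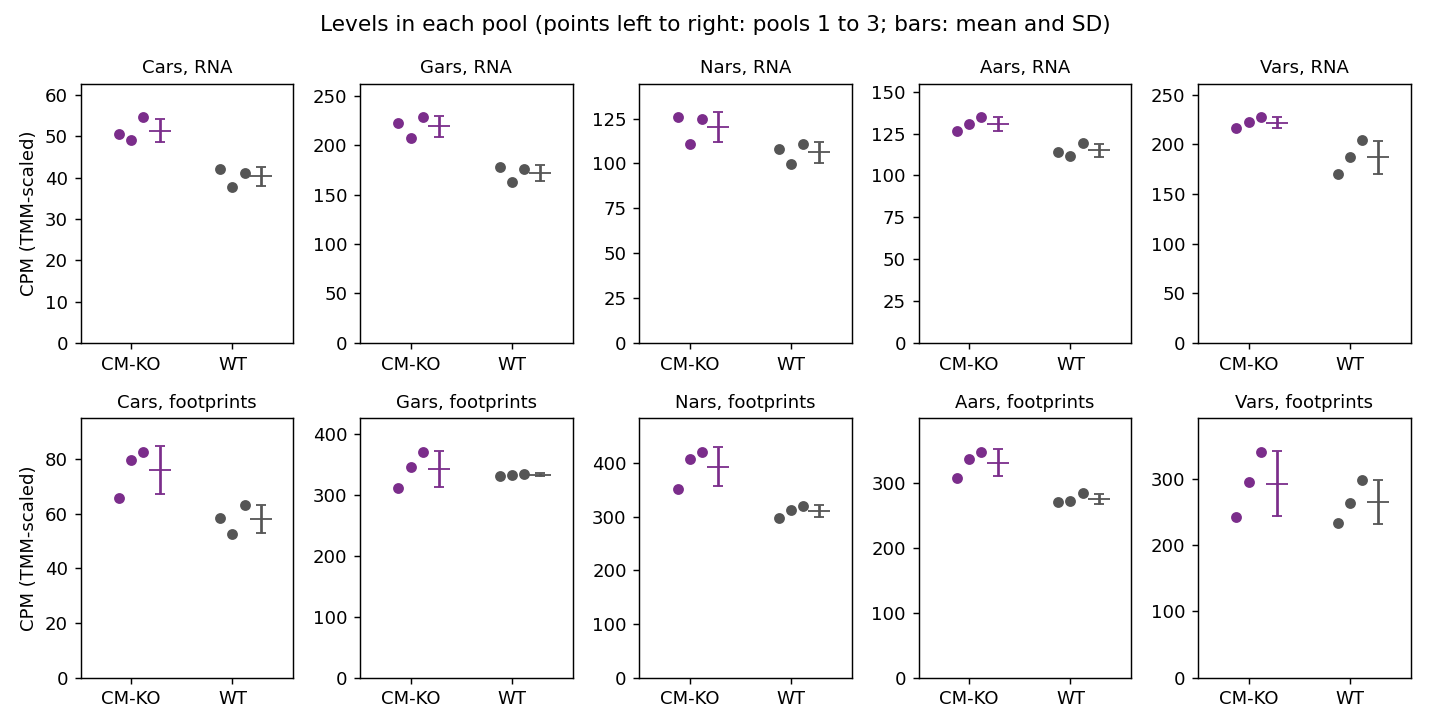
RNA (top row) and footprint levels (bottom row) in TMM-scaled CPM of 5 cytosolic synthetase genes in each pool, with the CM-KO pools left of the WT pools and the mean with 1 SD beside each group. For Cars the pools of the genotypes are apart in both rows, and for Gars they are apart in RNA and overlap in footprints, where CM-KO pools run from 311 to 370 CPM and WT pools from 330 to 335 CPM.

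Among the mitochondrial RNAs none was called, and those with the largest values were mostly below 0. Sars2, for serine, had 12.6, 13.7 and 13.2 CPM in CM-KO pools against 15.5, 14.3 and 16.3 in WT pools (log2 fold change -0.22, edgeR adjusted p = 0.284). Ears2, for glutamate, had 22.3, 23.0 and 21.9 CPM in CM-KO pools against 24.9, 27.2 and 25.9 in WT pools (-0.22, edgeR adjusted p = 0.163). Each CM-KO pool was below each WT pool in 4 of 17 mitochondrial genes, Sars2, Ears2 and Lars2 among them, where 8.42% of all genes were so placed. Vars2 had 26.6, 26.7 and 22.8 CPM in CM-KO pools and 25.6, 31.2 and 29.6 CPM in WT pools, with overlap (-0.19, edgeR adjusted p = 0.410). Iars2, for isoleucine, was the exception in direction, at 95.8, 95.5 and 96.0 CPM in CM-KO pools against 77.1, 84.2 and 92.4 in WT pools (0.18, edgeR adjusted p = 0.264).

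The second comparison asked the same of footprints, the measure closest to the synthesis of the enzymes. No synthetase gene was called, where 0.23% of the 15249 genes tested were, with 0.0853% higher and 0.144% lower in CM-KO, and every cytosolic gene had a log2 fold change above 0. The 20 values ran from 0.02 to 0.39 with a median of 0.15, and those of the mitochondrial genes from -0.66 to 0.35 with a median of -0.11 and 4 of 17 above 0. Over all genes the median was -0.01 and 47.1% were above 0. At an unadjusted p under 0.05 there were 7 cytosolic and 2 mitochondrial genes, of 1351 among all genes. For 8 cytosolic genes each CM-KO pool was above each WT pool, where 7.74% of all genes were so placed, and for none was it below, where 7.05% were. All 20 cytosolic genes were above 0 in each of the 13 alternative settings other than without CM-KO pool 3 and without WT pool 1, with 18 in each of these. The mitochondrial median was -0.07 without CM-KO pool 1. The genes share their libraries, so their directions are not independent of each other.

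Cars was again first, with 65.8, 79.6 and 82.4 footprint CPM in CM-KO pools against 58.3, 52.6 and 63.0 in WT pools, a log2 fold change of 0.39 (SE 0.10, 95% interval 0.16 to 0.62, edgeR adjusted p = 0.228). Nars (chromosome 18, 64632718 to 64649723, minus strand) had 352, 407 and 420 CPM in CM-KO pools against 298, 313 and 319 in WT pools, a log2 fold change of 0.34 (SE 0.08, 95% interval 0.15 to 0.53, edgeR adjusted p = 0.192). Each CM-KO pool of both genes lay above each WT pool. Footprint deviations of same-numbered CM-KO and WT pools correlated at 0.40, 0.18 and 0.12 for pools 1, 2 and 3. Their RNA deviations correlated at -0.14, 0.13 and -0.37. With the replicate number as a block Nars was called (0.34, edgeR adjusted p = 0.0346), as were 203 genes in all against 35 without the block. Nars was also called with DESeq2 (0.34, adjusted p = 0.0116), with CM-KO pool 1 left out (0.42, edgeR adjusted p = 0.0365) and in the authors' deposited table (adjusted p 0.0272). Without CM-KO pools 1 and 2 it had a log2 fold change of 0.44 and no synthetase gene was called.

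The other cytosolic genes with the largest footprint values shared this pattern of pools. Yars had 96.5, 113 and 122 CPM in CM-KO pools against 91.6, 91.5 and 89.5 in WT pools (0.28, edgeR adjusted p = 0.357). Aars had 308, 338 and 348 CPM in CM-KO pools against 270, 272 and 285 in WT pools (0.26, edgeR adjusted p = 0.288). Iars, the isoleucine enzyme of the complex, had 276, 305 and 304 CPM in CM-KO pools against 249, 258 and 260 in WT pools (0.21, edgeR adjusted p = 0.400). In each of them CM-KO pool 1 was the lowest of its genotype and still above the WT pools. Gars did not share it: its footprints were at 311, 346 and 370 CPM in CM-KO pools and 330, 333 and 335 CPM in WT pools, a log2 fold change of 0.04 (95% interval -0.14 to 0.22, edgeR adjusted p = 0.940).

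Of the mitochondrial genes Lars2 had the largest footprint value, and it rested on 1 library. Its footprints were at 38.1, 40.1 and 42.0 CPM in CM-KO pools and 99.0, 42.3 and 48.3 CPM in WT pools, and the log2 fold change was -0.66 (SE 0.32, edgeR adjusted p = 0.638), or -0.18 without WT pool 1. In footprints 3 of 17 mitochondrial genes, Ears2, Iars2 and Lars2, had each CM-KO pool below each WT pool, where 7.05% of all genes had. Hars2, for histidine, was the 1 of 17 with each CM-KO pool above each WT pool, where 7.74% of all genes were so placed. Hars2 was at 24.9, 30.7 and 24.4 CPM in CM-KO hearts and 21.1, 19.3 and 22.2 CPM in WT hearts (0.35, edgeR adjusted p = 0.384). It lies head to head with Hars, and the genes overlap by 198 bases on opposite strands of chromosome 18. Pars2, for proline, had 7.87, 9.28 and 7.39 CPM in CM-KO pools against 9.58, 10.9 and 9.08 in WT pools (-0.26, edgeR adjusted p = 0.720). Cars2 had 17.7, 14.9 and 13.4 CPM in CM-KO pools against 18.0, 16.6 and 18.4 in WT pools (-0.22, edgeR adjusted p = 0.704). Sars2 had 14.6, 19.1 and 18.5 CPM in CM-KO pools against 18.5, 21.5 and 20.9 in WT pools (-0.21, edgeR adjusted p = 0.717). The genotypes overlapped in these last 3 genes.

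**Figure D3:**
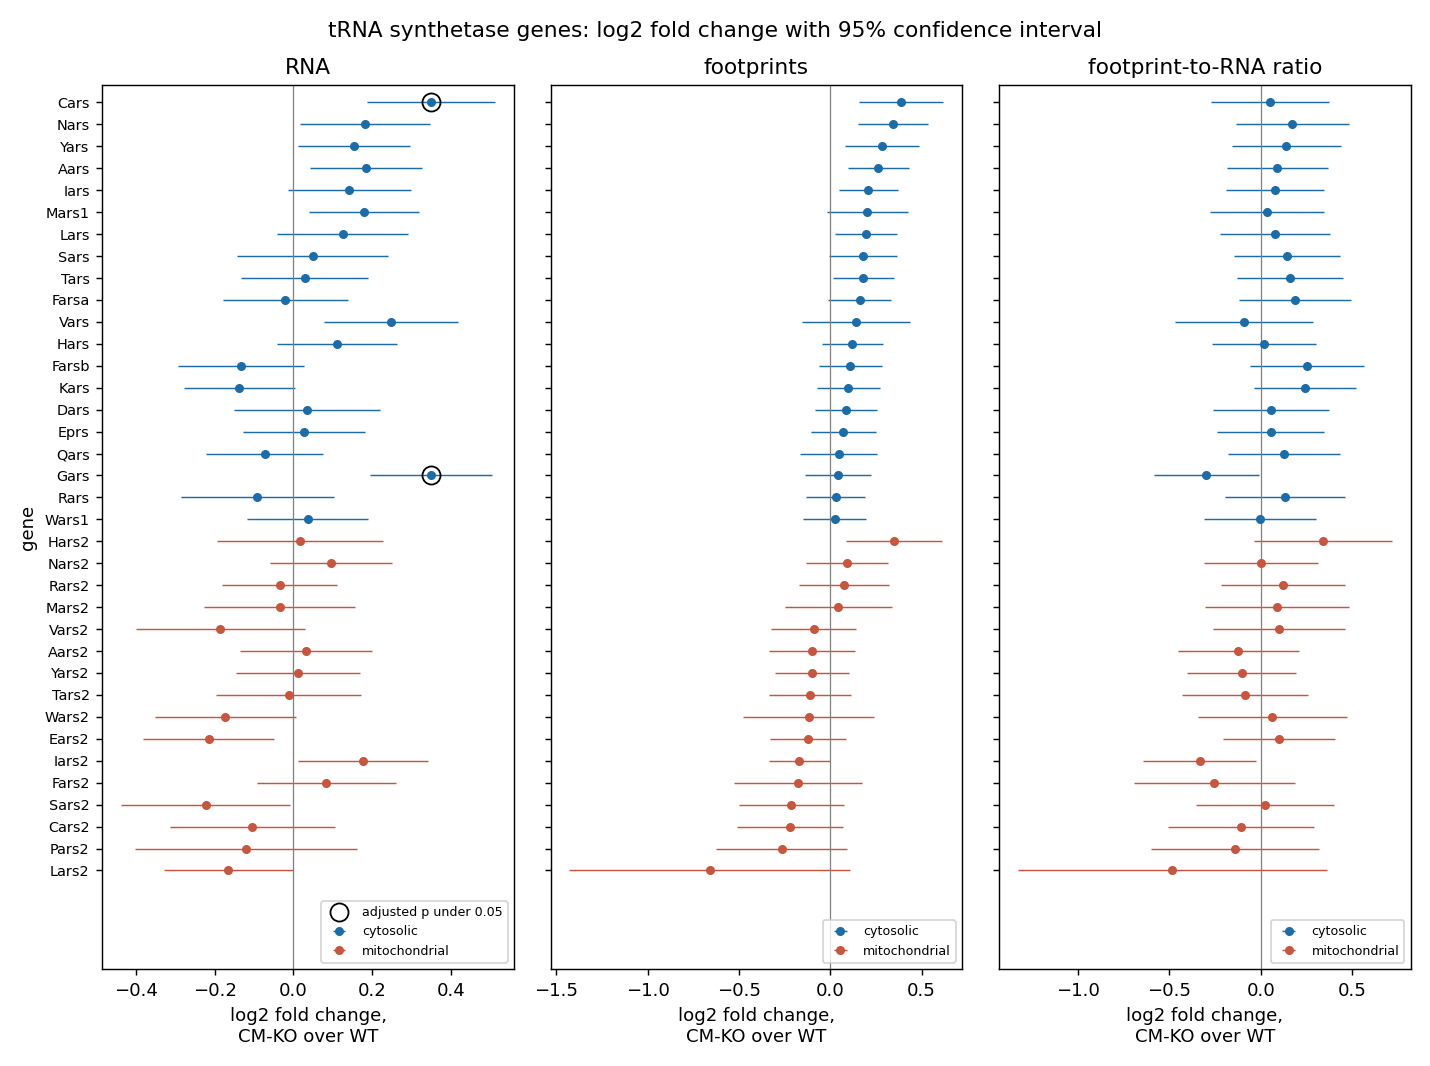
Log2 fold change of CM-KO over WT (x axis) with its 95% confidence interval for the synthetase genes, 1 mitochondrial gene not being drawn (rows, cytosolic above mitochondrial, in the order of the footprint values) in RNA, footprints and their ratio. All 20 cytosolic points lie to the right of 0 in footprints, where the mitochondrial median is -0.11, and rings mark the calls of Cars and Gars in RNA.

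As a share of all counts, cytosolic synthetase genes took 0.432%, 0.447% and 0.48% of footprints in CM-KO pools 1, 2 and 3, against 0.429%, 0.424% and 0.421% in WT pools. Mitochondrial synthetase genes took 0.0503%, 0.0484% and 0.051% in CM-KO pools, against 0.0633%, 0.0542% and 0.0537% in WT pools. The genotypes did not overlap in either share, cytosolic being higher and mitochondrial lower in CM-KO hearts, though an exact permutation test of 3 against 3 pools cannot give a two-sided p under 0.1. In RNA the cytosolic shares were 0.22%, 0.207% and 0.226% in CM-KO pools and 0.208%, 0.205% and 0.214% in WT pools, which overlap. Within the 18 pairs, the log2 fold change of the cytosolic gene was above that of its mitochondrial partner in 14 pairs for RNA. It was so in 16 pairs for footprints and in 12 for the footprint-to-RNA ratio. Erythroid markers moved in the same direction as the cytosolic footprints, with a median log2 fold change of 0.65. For 8 of 8 of them each CM-KO pool was above each WT pool, where 7.74% of all genes were so placed. None was called by edgeR without a block, where 0.23% of all genes were. All 8 were with the replicate number as a block, where 203 genes were in all, and 7 were with DESeq2. In RNA the erythroid markers Alas2 (0.48, edgeR adjusted p = 0.0391) and Slc4a1 (0.50, edgeR adjusted p = 0.0463) were called higher, of 8, where 3.57% of all genes were. Macrophage markers, 4 of 5 having values, were above 0 in footprints in 4 of 4, where 47.1% of all genes were. Their median was 0.54, and 3 of the 4 had each CM-KO pool above each WT pool, beside the same 7.74% of all genes. The macrophage markers summed to 40.3 to 50.7 CPM in CM-KO hearts and 27.7 to 35.6 CPM in WT hearts. The part of either cell type in the synthetase values was not tested.

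Median deviations of each class from the mean of the 6 pools show where the libraries stand. In footprints the cytosolic median was -0.04, 0.12 and 0.15 in CM-KO pools 1, 2 and 3, against -0.12, -0.07 and -0.04 in WT pools on the log2 scale. CM-KO pool 1 was therefore level with WT pool 3, and CM-KO pools 2 and 3 stood above the rest. The mitochondrial median was -0.10, 0.01 and -0.02 in CM-KO pools, against 0.04, 0.03 and 0.03 in WT pools. In RNA the cytosolic median was 0.09, -0.02 and 0.08 in CM-KO pools, against -0.04, -0.10 and -0.00 in WT pools, with CM-KO pool 2 inside the WT range.

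**Figure D4:**
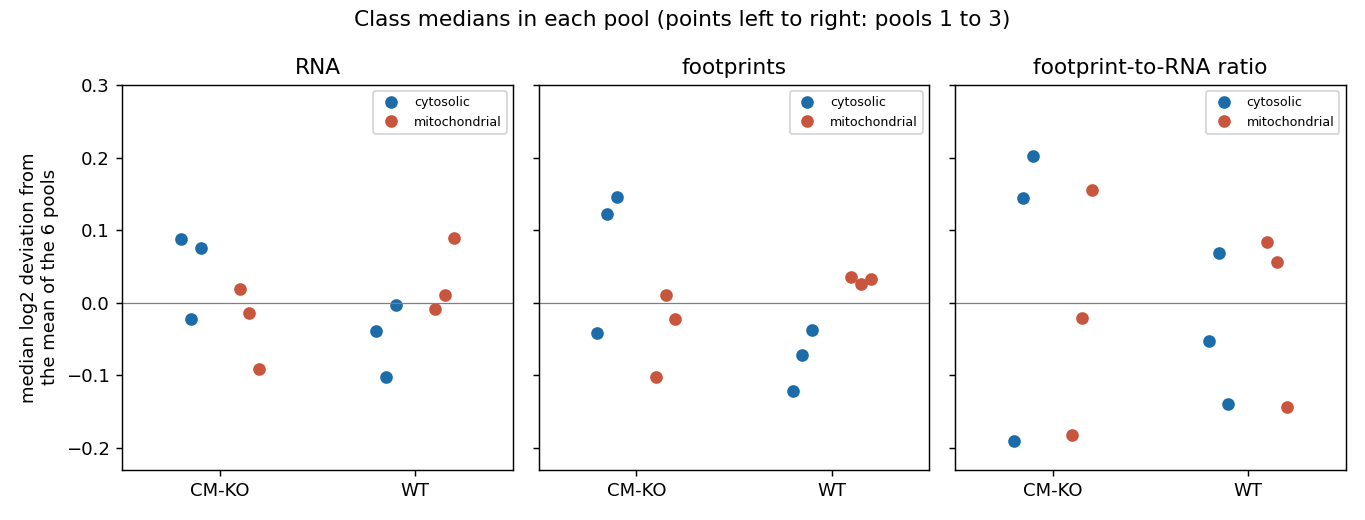
Median log2 deviation from the mean of the 6 pools (y axis) over the cytosolic and the mitochondrial synthetase genes, with 1 point for each pool and the CM-KO pools left of the WT pools. In footprints CM-KO pools 2 and 3 have cytosolic medians of 0.12 and 0.15, above all WT pools, while in the ratio CM-KO pool 1 stands lowest for both classes.

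The third comparison asked whether ribosome occupancy differed, as the interaction of genotype and assay. No synthetase gene was called, where 0.84% of the 15231 genes tested were, nearly all of them lower in CM-KO (0.834% against 0.00657% higher). The median log2 change of the ratio was 0.09 over the cytosolic genes, with 17 of 20 above 0, and 0.00 over the mitochondrial genes, with 9 of 17 above 0, beside -0.01 over all genes and 47.6% above 0. The 95% interval reached a median of 0.30 to either side for cytosolic genes and 0.36 for mitochondrial genes, and these widths bound what 3 pools a genotype can tell of most genes. Single libraries moved the medians: the cytosolic median was 0.26 without CM-KO pool 1, 0.03 without CM-KO pool 2, 0.15 without WT pool 2 and 0.04 without WT pool 3. The mitochondrial median was 0.10 without CM-KO pool 1 and -0.09 without WT pool 3, and without WT pool 3 the values above 0 were 13 of 20 cytosolic and 4 of 17 mitochondrial genes. At an unadjusted p under 0.05 there was 1 gene in each class, of 946 among all genes. With the pool as a block, since both libraries of a pool come from the same hearts, 226 genes were called in all and no synthetase gene. RNA and footprint deviations of the same pool correlated at -0.04, 0.37 and 0.44 in CM-KO pools 1, 2 and 3. In WT pools 1, 2 and 3 they correlated at 0.63, 0.10 and 0.49.

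Gars was the cytosolic gene with an unadjusted p under 0.05 by edgeR. Its log2 ratio was 0.83, 1.13 and 1.18 in CM-KO pools, against 1.33, 1.47 and 1.23 in WT pools, with each CM-KO pool below each WT pool, as in 8.25% of all genes. The change was -0.30 (95% interval -0.59 to -0.01, unadjusted p = 0.0447 and adjusted p = 0.767 by edgeR). Iars2 was the mitochondrial gene, at 0.26, 0.41 and 0.58 in CM-KO pools and 0.89, 0.83 and 0.58 in WT pools (-0.33, unadjusted p = 0.0343 and adjusted p = 0.684 by edgeR). In both genes each CM-KO pool was above each WT pool in RNA. In footprints Gars overlapped between genotypes, while Iars2 had 90.3, 97.4 and 103 CPM in CM-KO pools against 105, 110 and 112 in WT pools. No cytosolic gene had each CM-KO ratio above each WT ratio, where 3.83% of all genes had.

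The remaining ratios with the largest values overlapped between genotypes. The cytosolic ones were positive: Farsb was at 1.17, 1.34 and 1.53 in CM-KO pools and 1.01, 1.29 and 0.97 in WT pools (0.25, edgeR adjusted p = 1.00). Kars was at 1.16, 1.50 and 1.55 in CM-KO pools and 1.22, 1.14 and 1.13 in WT pools (0.24, edgeR adjusted p = 0.975). Farsa was at 1.43, 1.74 and 1.85 in CM-KO pools and 1.59, 1.49 and 1.39 in WT pools (0.19, edgeR adjusted p = 1.00). In these genes CM-KO pool 1 lay within the WT range, and CM-KO pools 2 and 3 lay above. Nars, with the second highest ratio in WT hearts, was at 1.83, 2.26 and 2.23 in CM-KO pools and 1.90, 2.09 and 1.82 in WT pools (0.17, edgeR adjusted p = 1.00).

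Among mitochondrial genes Hars2 was at 0.80, 1.16 and 1.13 in CM-KO pools and 0.84, 0.62 and 0.62 in WT pools (0.34, edgeR adjusted p = 0.929). Lars2 was at 0.87, 1.05 and 1.16 in CM-KO pools and 2.17, 1.06 and 0.98 in WT pools (-0.48, edgeR adjusted p = 1.00), and without WT pool 1 its change was 0.03. Fars2 was at -1.59, -2.01 and -1.45 in CM-KO pools and -1.20, -1.48 and -1.62 in WT pools (-0.25, edgeR adjusted p = 1.00). All 6 values of Fars2 were below 0, and its genotypes overlapped. Pars2 was at 0.10, 0.43 and 0.40 in CM-KO pools and 0.46, 0.57 and 0.32 in WT pools (-0.14, edgeR adjusted p = 1.00), and its change was 0.02 without CM-KO pool 1.

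The cytosolic genes were also described by their place in the multisynthetase complex and by structural class. The 8 enzymes of the complex (Eprs, Lars, Iars, Mars1, Qars, Kars, Rars and Dars) had a median RNA log2 fold change of 0.03 with 5 above 0, and the 12 outside it a median of 0.13 with 10 above 0. The complex members had 3 values above 0 and a median of -0.01 with upper quartile scaling, -0.04 without CM-KO pool 1 and -0.02 without WT pool 2, and a median of 0.08 with 5 above 0 without CM-KO pool 2. In footprints all 8 and all 12 were above 0 with medians of 0.09 and 0.17, other than without WT pool 1 (6 of 8) and without CM-KO pool 3 (10 of 12), and the difference between these sets was not tested. Class I enzymes, whose catalytic domain is a Rossmann fold, had medians of 0.14 in RNA and 0.19 in footprints over 9 genes. Class II enzymes had medians of 0.04 and 0.14 over 10 genes, with the fused Eprs, which holds a domain of each class, left out of both. The class II RNA median was -0.002 with upper quartile scaling, -0.02 without WT pool 2, 0.02 without CM-KO pool 1, 0.09 without CM-KO pool 2 and 0.10 without WT pool 1, and the class I footprint median was 0.12 without WT pool 1.

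A list of 12 cytosolic synthetase genes whose mRNAs are reported to be induced by ATF4 in other cells (Aars, Cars, Eprs, Gars, Iars, Lars, Mars1, Nars, Sars, Tars, Wars1 and Yars) was set beside the other 8. Cars and Gars, the 2 that rose in RNA, were among the 12, where 3.57% of all genes were called higher. All 12 had RNA log2 fold changes above 0, with a median of 0.15, where 51.7% of all genes were above 0. This count was 9 of 12 with upper quartile scaling and when CM-KO pool 1 or WT pool 2 was left out, and 11 of 12 when CM-KO pool 3, or CM-KO pools 1 and 2 together, were left out. Of the other 8, 3 were above 0, with a median of -0.05, and Vars had the largest value. Their median ran from -0.09 without CM-KO pool 1 to 0.006 without WT pool 3, where 4 of 8 were above 0. In footprints the medians were 0.20 over the 12 and 0.11 over the other 8, the second being 0.06 without CM-KO pool 3 or without WT pool 1. The difference between the 12 and the 8 was not tested, and the list was chosen with earlier results of these data known. Mars1 overlaps Ddit3, itself a stress-induced gene, by 3820 bases on the opposite strand. Ddit3 RNA averaged 8.53 ± 1.71 CPM in CM-KO hearts and 8.39 ± 2.33 CPM in WT hearts (0.04, edgeR adjusted p = 0.979). Mars1 RNA averaged 108 CPM in CM-KO hearts and 95.5 CPM in WT hearts. The strand setting of the counting is not stated, and whether Mars1 counts hold reads of Ddit3 was not tested.

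ATF4 binds, with partners of the C/EBP family, composite sites whose core reads TGATGNAA, most often TGATGCAA. Promoter windows of RefSeq (GRCm38.p6, 250 bases before to 50 after the start site) were searched for this core on both strands, TGATGCAA being among the matches to TGATGNAA. The table held 13 cytosolic and 14 mitochondrial genes, with Cars, Hars, Hars2, Lars, Nars, Pars2, Rars, Vars and Wars1 among the genes without an entry. The core was found for 5 of the 13 cytosolic genes (38.5%) and for 0 of the 14 mitochondrial genes. A gene counted once if any of its windows matched. The share over single promoters, a different unit, was 3.97% of all 32851. The 5 genes, Aars, Gars, Iars, Tars and Yars, were all among the 8 reported ATF4 targets with a window. TGATGCAA itself was found for 4 of the 13 genes (30.8%), beside 0.895% of single promoters. Such matches are a description of the sequence and no evidence of binding in these hearts.

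Matched stretches, 1 for each gene, are shown because Gars, which rose in RNA, and Aars, Iars and Yars, among the cytosolic genes with the largest footprint values, hold one. Cars and Nars had no window to search. Capitals mark the core, or its reverse complement TTGCATCA or TTTCATCA, in 30 bases read 5' to 3' along the gene. Positions on GRCm39 come from an exact match of each stretch.
Aars, chr8:111760472-111760501, plus strand: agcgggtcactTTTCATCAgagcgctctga
Gars, chr6:55014945-55014974, plus strand: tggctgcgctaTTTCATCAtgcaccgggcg
Iars, chr13:49835602-49835631, plus strand: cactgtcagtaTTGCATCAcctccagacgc
Tars, chr15:11399741-11399770, minus strand: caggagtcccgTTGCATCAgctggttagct
Yars, chr4:129083688-129083717, plus strand: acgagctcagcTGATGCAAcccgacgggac
The core of Gars begins 30 bases before the RefSeq start site and that of Tars 15 bases before it. Those shown for Iars, Yars and Aars begin at positions 8, 4 and 10, the start site being position 1. Tars, which holds TGATGCAA, had an RNA log2 fold change of 0.03 (edgeR adjusted p = 0.945), with 72.4, 63.1 and 71.2 CPM in CM-KO pools and 69.5, 64.4 and 68.8 CPM in WT pools. Its footprints were at 168, 188 and 193 CPM in CM-KO pools and 161, 159 and 163 CPM in WT pools (0.18, edgeR adjusted p = 0.499). A core in the window and a change in RNA thus did not always go together.

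Genes that work beside the synthetases were read as further lists. Of 25 genes of ATF4 and amino acid supply, 6 rose in RNA and none fell, with a median log2 fold change of 0.32, where 3.57% of all genes were called higher and 0.805% lower. Sesn2, a stress-induced regulator of growth signalling, averaged 34.3 ± 5.26 CPM in CM-KO hearts and 18.2 ± 2.28 CPM in WT hearts (0.92, edgeR adjusted p = 0.00315). Mthfd2, a mitochondrial enzyme of folate metabolism, averaged 71.6 ± 7.54 CPM in CM-KO hearts and 45.8 ± 5.52 CPM in WT hearts (0.65, edgeR adjusted p = 0.006). Slc7a5, a transporter of large neutral amino acids, averaged 87.5 ± 10.8 CPM in CM-KO hearts and 57.0 ± 4.24 CPM in WT hearts (0.62, edgeR adjusted p = 0.00548; SD, n = 3 throughout). The others were Atf4 itself (0.37), the arginine and lysine transporter gene Slc7a1 (0.33) and Aldh18a1 of proline synthesis (0.28). For 4 of the 6 genes the log2 fold change was above the 0.35 of Cars and Gars, a difference that was not tested.

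Across alternatives 2 to 8 of these genes rose: 2 when WT pool 2 was left out, 3 when CM-KO pool 2 or 3 was, 4 when CM-KO pool 1 was, and 2 when CM-KO pools 1 and 2 both were. With all 12 libraries in one model 2 rose, and with the replicate number as a block 3 did. With WT pool 1 left out 8 did. In footprints none of the 25 was called, with a median of 0.32, and 3 were without CM-KO pool 1 or without CM-KO pools 1 and 2. With the replicate number as a block 4 were, namely Sesn2 (0.95, edgeR adjusted p = 0.0162), Atf4 (0.59, 0.0209), Asns (0.46, 0.0112) and Mthfd2 (0.45, 0.0123). Asns makes asparagine, the amino acid that Nars loads onto tRNA. It averaged 196 ± 28.3 footprint CPM in CM-KO hearts and 142 ± 7.49 CPM in WT hearts.

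The scaffold proteins of the multisynthetase complex, Aimp1, Aimp2 and Eef1e1, gave no call, with RNA log2 fold changes of -0.05, -0.04 and -0.04. Mitochondria make glutaminyl-tRNA by an indirect route, in which a transamidase acts on glutamyl-tRNA, and they formylate the initiator methionyl-tRNA. The 3 transamidase genes and the formyltransferase gene Mtfmt were all below 0 in RNA and none was called. Gatc was at -0.29 (edgeR adjusted p = 0.140), Gatb at -0.27 (0.140), Mtfmt at -0.18 (0.512) and Qrsl1 at -0.10 (0.699). With upper quartile scaling Gatb, a transamidase subunit gene, was called. Of 12 genes of tRNA delivery, export, editing and selenocysteine none was called in any of the 3 comparisons, with a median RNA log2 fold change of -0.00. Xpot, which exports tRNA from the nucleus, had an RNA log2 fold change of 0.20 (edgeR adjusted p = 0.166), at 123 ± 8.18 CPM in CM-KO hearts and 107 ± 3.76 CPM in WT hearts.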

How the data were processed

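Per the labels' protocols, a service provider mapped the reads to mm39 and counted them with in-house software. Which aligner, strand setting and counted region were used is not given. Raw counts per gene, deposited beside the authors' RPM values, were the input of every test. The authors' ratio of footprint to RNA coverage served as an alternative. Log2 fold changes and p-values in the authors' deposited table were only set beside the results.

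Each assay was compared between 3 CM-KO and 3 WT libraries by edgeR 4.0.16 under R 4.3.3 (quasi-likelihood, TMM, filterByExpr with minimum count 10 and minimum total 15). For the ratio, an interaction term of genotype by assay was fitted to all 12 libraries. P-values were adjusted by Benjamini-Hochberg over all genes tested in that comparison, with calls under 0.05. DESeq2 1.42.0 was an alternative. An exact permutation test of 3 against 3 cannot give a p under 0.1. Log2 ratios per pool used a prior count of 1. Pools are separate sets of hearts, and no molecular identifiers are stated.

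All 37 genes passed the filters in every comparison. Named genes were the called members, the 5 of each class with the largest log2 fold change in a comparison, and partners of called members. Members and lists were chosen with earlier results of these data known. Correlations between same-numbered CM-KO and WT pools, over 9230 genes, were 0.40, 0.18 and 0.12 for footprint deviations and -0.14, 0.13 and -0.37 for RNA deviations. Lengths and coordinates come from GENCODE vM39 (GRCm39). The test scripts were tested on simulated data. Values of 1 mitochondrial gene that the rule names and 1 promoter stretch are not reported here, and the gene stays in the counts and medians.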

Additional observations from a re-analysis of the deposited data

How the results depend on the processing

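Of the single-gene values 359 kept direction and side of the threshold under an alternative, 14 lost a call, 5 gained one and 2 turned round. The 2 are ratios: Pars2 ran from -0.21 to 0.024 and Lars2 from -0.73 to 0.031 as replicates were left out. Called genes in RNA numbered 750, and 367 with the replicate block, 250 with all 12 libraries in one model, 126 without CM-KO pools 1 and 2, and 207 to 783 with a replicate left out. Synthetase RNA calls numbered 2, and 1 with upper quartile scaling, 3 with DESeq2 (Vars the third, adjusted p = 0.0447), 0 with the block (edgeR adjusted p = 0.0567 for Cars and 0.0573 for Gars), 0 with all 12 libraries, 0 without CM-KO pools 1 and 2, and 0 to 3 with a replicate left out. The mitochondrial RNA median was -0.14 without CM-KO pools 1 and 2.

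Called genes in footprints numbered 35, and 60 with upper quartile scaling, 184 with DESeq2, 203 with the block, 80 with all 12 libraries, 54 without CM-KO pools 1 and 2, and 1 to 94 with a replicate left out. Their higher share was 37.1%, and 54.3% with DESeq2, 58.1% with the block and 55% with all 12 libraries. Synthetase footprint calls numbered 0, 1 with DESeq2 or the block, and 0 to 1 with a replicate left out. Called ratios numbered 128, and 41 with relative log expression scaling, 248 with upper quartile scaling, 226 with the block, 5 without CM-KO pools 1 and 2, and 9 to 113 with a replicate left out, with no synthetase among them. In RNA the block also left 3 of the 25 ATF4 and amino acid supply genes called, against 6. With the authors' deposited ratio the WT medians were 0.95 for cytosolic and 0.091 for mitochondrial genes, and per kilobase of coding sequence the RNA medians, taken here as the mean of the 3 pool medians, were 39.9 and 15.5 CPM. The causes were not tested.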
